A study of Mus musculus with 16 samples.

Results

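The machinery that takes a cell through G1 was followed in cMyc+ germinal center (GC) B cells by the transcripts of 10 genes: the D-type cyclins Ccnd1, Ccnd2 and Ccnd3, the kinases Cdk4, Cdk6 and Cdk2, the CDK inhibitors Cdkn1a, Cdkn1b and Cdkn2c, and the retinoblastoma gene Rb1. They were chosen by name, and each was found as 1 of the 51912 gene rows of the deposited expression table. All 16 libraries came from spleens of cMyc gfp/gfp mice on a C57BL/6J background, which carry a GFP-cMyc fusion at the endogenous cMyc locus, so that no library came from mice without the fusion. The mice were males and females aged 6 to 15 weeks, immunized intraperitoneally with 200000000 sheep red blood cells (SRBC) and sampled on day 7. After depletion of CD43+ cells, B220+ CD38low CD95+ cMycGFP+ cells were sorted into 4 subpopulations with 4 libraries each. CD69hi cells were called cMyc+prePB, CD23hi CD21/35hi cells cMyc+early, CD23int CD21/35int cells cMyc+lateCD23int and CD23lo CD21/35lo cells cMyc+lateCD23lo. The paper treats them as light zone subpopulations. In its gating, cMyc+ dark zone cells (CXCR4hi CD86lo) were removed before the early and late cells were defined, so they are not among these libraries' early and late groups. The labels do not say whether a library held cells of 1 mouse or of several, so the spread between the 4 libraries of a subpopulation may be partly technical.

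In G1, D-type cyclins bind CDK4 or CDK6, and the complexes phosphorylate RB, the product of Rb1, which releases E2F transcription factors. CDK2, bound to cyclin E, carries the phosphorylation further and starts S phase. p18 (Cdkn2c) belongs to the INK4 inhibitors, which bind CDK4 and CDK6, whereas p21 (Cdkn1a) and p27 (Cdkn1b) belong to the CIP/KIP inhibitors, which also restrain CDK2. In B cells, Ccnd2 is induced by antigen receptor and CD40 signals, Ccnd3 is needed for the expansion of GC B cells in the dark zone, and both Ccnd2 and Cdk4 are known targets of cMyc.

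The libraries held 19812080 to 25795815 reads, with 14650 to 15573 genes detected, and 3 reads corresponded to 2.48 to 3.23 normalized counts. In these units 12505 genes averaged at least 10 and were tested, including all 10 G1 regulators. All 8 B cell and GC B cell markers were above the floor of 3 reads in every library. Fcer2a RNA (CD23) followed the CD23 sort, with 13398 ± 4314 (SD, n = 4) in cMyc+early, 8594 ± 4492 in cMyc+lateCD23int and 2274 ± 1172 in cMyc+lateCD23lo, and of these steps cMyc+early over cMyc+lateCD23lo passed (limma adjusted p = 0.00434). Cr2 RNA (CD21/35) did not follow the order of the sort on CD21/35, with 6638 ± 1826, 6928 ± 1497 and 4738 ± 2939 in the same subpopulations (limma adjusted p = 0.534 for cMyc+early over cMyc+lateCD23lo). Cd69 RNA did not mark the CD69hi sort, with 3453 ± 1296 in cMyc+prePB and 3762 ± 1766 in cMyc+lateCD23int (limma multigroup adjusted p = 0.687). The 4 libraries numbered 1, among which lie 3 extreme values of the G1 regulators, were therefore also left out together as an alternative chosen after seeing the data.

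Among the 10 G1 regulators, Ccnd2 was the only one to pass the multigroup test (limma F test over the 4 subpopulations, Benjamini-Hochberg adjusted p = 0.000722), which 0.408% of all tested genes passed. Ccnd2 (ENSMUSG00000000184, chr6:127125162-127152193, minus strand, GRCm38) encodes cyclin D2. Its normalized counts in replicates 1 to 4 were 6412, 13640, 12710 and 11288 in cMyc+prePB, and 4280, 6965, 6611 and 6656 in cMyc+early. In cMyc+lateCD23int they were 3158, 3761, 4339 and 3436, and in cMyc+lateCD23lo 1999, 3325, 2300 and 2106. The subpopulations thus ranked cMyc+prePB, cMyc+early, cMyc+lateCD23int and cMyc+lateCD23lo, from high to low, within each of the 4 replicate numbers. The labels do not say that equal numbers mark matched libraries, so the order within numbers depends on the numbering and is a description only. Any 1 order kept in all 4 numbers was seen for 15 of the 12505 tested genes (0.12%). The order taken from Ccnd2 was seen for 3 (0.024%), of which the others were Gadd45g, a growth arrest and DNA damage inducible gene, and Ido1, a tryptophan-degrading enzyme, both named after their values were seen. The cMyc+prePB and cMyc+early ranges of Ccnd2 overlapped through the low cMyc+prePB replicate 1, and the cMyc+early and cMyc+lateCD23int ranges overlapped through the low cMyc+early replicate 1, while those of cMyc+lateCD23int and cMyc+lateCD23lo overlapped through the high cMyc+lateCD23lo replicate 2.

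Ccnd2 was 11012 ± 3216 in cMyc+prePB against 2433 ± 608 in cMyc+lateCD23lo, a log2 fold change of 2.15 ± 0.23 (SE, limma, adjusted p = 0.000225), and 1 of the 10 regulators passed in this comparison against 0.264% of all tested genes. The excess of cMyc+prePB over cMyc+lateCD23int, at 3673 ± 508, was 1.54 ± 0.23 on the log2 scale (limma adjusted p = 0.00725), with 1 regulator and 0.144% of tested genes passing. Over cMyc+lateCD23lo, cMyc+early at 6128 ± 1242 had a log2 excess of 1.34 ± 0.23 (limma adjusted p = 0.013), with 1 regulator and 0.28% of genes passing. These comparisons share libraries and are not independent of each other. The excess over cMyc+lateCD23lo in cMyc+early was the least secure of the 3: its limma adjusted p was 0.0543 without cMyc+early replicate 4, 0.0517 without cMyc+lateCD23lo replicate 3 and 0.0561 without cMyc+lateCD23lo replicate 4. Without a mean-variance trend in limma the adjusted p of this excess was 0.0744 and that of cMyc+prePB over cMyc+lateCD23int 0.052.

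The 3 steps between neighbours in the order did not pass in the fits of all 16 libraries without a replicate block. cMyc+prePB exceeded cMyc+early in Ccnd2 by 0.81 on the log2 scale (95% interval 0.33 to 1.30, limma adjusted p = 0.227). No regulator passed in this comparison, in which 0.192% of genes did, and none passed with edgeR on recovered reads, also without a block. With limma, 3 regulators (Ccnd1, Ccnd2 and Rb1) and 1073 of the 12505 tested genes had an unadjusted p under 0.05. Without cMyc+prePB replicate 1, the lowest Ccnd2 library of its group, the excess was 1.06 and passed (limma adjusted p = 0.0477). From cMyc+early to cMyc+lateCD23int the difference was 0.72 (interval 0.24 to 1.204), and from cMyc+lateCD23int to cMyc+lateCD23lo it was 0.61 (interval 0.13 to 1.10). In each of the latter comparisons no regulator and 0.008% of genes passed with limma, Ccnd2 alone or Ccnd2 and Cdk6 had an unadjusted p under 0.05, and edgeR called none of the 10. Over all 12505 tested genes, 464 and 785 had an unadjusted p under 0.05 there, in that order.

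Leaving out the 4 libraries numbered 1 changed no call on Ccnd2, and the log2 excess of cMyc+prePB over cMyc+lateCD23lo was then 2.31. Other transcripts moved with the subpopulations too. The summed plasma cell markers, most of it Jchain, the joining chain of polymeric antibodies, ranged from 36387 to 110788 for cMyc+prePB, 22716 to 29244 for cMyc+early, 30564 to 58707 for cMyc+lateCD23int and 55349 to 89659 for cMyc+lateCD23lo. Xbp1, which also serves other secretory cells, held 3284 to 5894 of it, and the defining markers were low, with Sdc1 at 0 to 108 and Prdm1 at 0 to 133 over the libraries, and their part in the Ccnd2 differences was not tested. The T cell markers summed to 4528 to 6943 for cMyc+prePB, 2163 to 3855 for cMyc+early, 4726 to 6526 for cMyc+lateCD23int and 4002 to 5801 for cMyc+lateCD23lo. This was almost entirely Lck, a Src family kinase, while the other 5 genes of that list never exceeded 73.9. In sorted bulk RNA, fewer Ccnd2-expressing cells and less Ccnd2 RNA per cell cannot be told apart.

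**Figure D1:**
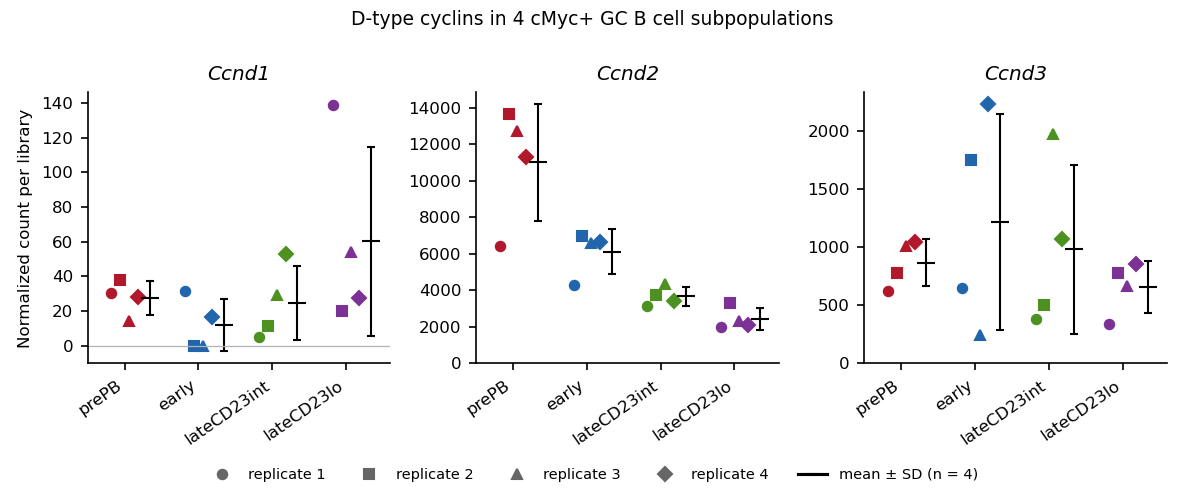
Normalized counts of Ccnd1, Ccnd2 and Ccnd3 (vertical axes, linear) in each library of the 4 subpopulations (horizontal axis), with marker shapes for replicate numbers and black bars for mean ± SD (n = 4). Ccnd2 stepped down from 11012 in cMyc+prePB to 2433 in cMyc+lateCD23lo, whereas the libraries of Ccnd3 ranged from 245 to 2235 within cMyc+early alone.

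The means of cyclin D3 (Ccnd3, ENSMUSG00000034165, chr17:47505051-47599691) did not have the order of those of cyclin D2. Its normalized counts in replicates 1 to 4 were 649, 1754, 245 and 2235 in cMyc+early, and 382, 503, 1980 and 1068 in cMyc+lateCD23int. In cMyc+prePB they were 626, 779, 1015 and 1049, and in cMyc+lateCD23lo 341, 777, 664 and 853. Libraries of 1 subpopulation differed by up to 9.11-fold, and all 4 ranges overlapped. The widest difference of the means on the log2 scale, between cMyc+early and cMyc+lateCD23lo, was 0.52 (95% interval -0.70 to 1.73, limma adjusted p = 0.797), so that a change of either sign and of more than 2-fold upwards lies within the interval.

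Cyclin D1 (Ccnd1, ENSMUSG00000070348, chr7:144929931-144939925) was low, with 0 to 129 reads per library and 2 libraries at or under the floor of 3 reads. In cMyc+early it had 31.4, 0, 0 and 16.3 normalized counts in replicates 1 to 4, where the 2 libraries without a read allow up to 2.65 and 2.89. In cMyc+lateCD23lo the counts were 139, 19.7, 54.0 and 27.5, in cMyc+prePB 30.1, 38.0, 14.4 and 28.0, and in cMyc+lateCD23int 4.98, 11.2, 29.1 and 52.98. The ranges of cMyc+early and cMyc+lateCD23lo overlapped, and the fitted difference of -3.25 on the log2(normalized count + 1) scale (95% interval -5.66 to -0.84) did not pass (limma adjusted p = 0.320). With edgeR on recovered reads the difference was -2.32, and without cMyc+early replicate 1 it was -4.16 in limma.

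Levels of different genes were compared only after division by the length of their exons, in normalized counts per kb. On that scale Ccnd2 averaged 618 ± 398 (SD, n = 16 libraries), Ccnd3 106 ± 66.6 and Ccnd1 6.59 ± 7.02. Cyclin D2 accordingly made up most of the D-type cyclin transcript in every library, between 66.6% and 96.2% of the sum of the 3 genes. Its share was 91.5% ± 1.74 (SD, n = 4) for cMyc+prePB, 83.3% ± 9.83 for cMyc+early, 78.8% ± 10.6 for cMyc+lateCD23int and 74.3% ± 4.48 for cMyc+lateCD23lo. The 4 cMyc+prePB libraries, at 89.8% to 93.7%, lay above all 4 cMyc+lateCD23lo libraries, at 68.5% to 79.2%, while cMyc+early, at 73.3% to 96.2%, overlapped both. The ratio of Ccnd2 to Ccnd3 per kb was 11.9 ± 3.09 for cMyc+prePB, 9.44 ± 10.6 for cMyc+early, 4.93 ± 2.83 for cMyc+lateCD23int and 3.75 ± 1.34 for cMyc+lateCD23lo. These shares and ratios are descriptions without a test.

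**Figure D2:**
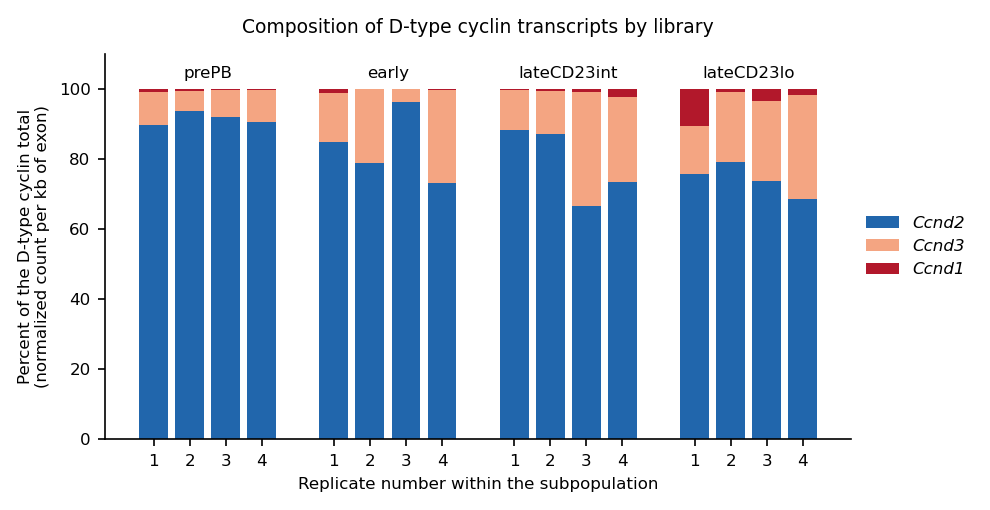
Stacked bars give, for each library (horizontal axis, replicate number within the subpopulation), the percentage of the D-type cyclin total contributed by Ccnd2, Ccnd3 and Ccnd1, from normalized counts per kb of exon (vertical axis). Ccnd2 held at least 66.6% in all 16 libraries, and Ccnd1 reached its highest share, 10.5%, in cMyc+lateCD23lo replicate 1.

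Among the kinases, Cdk4 carried the CACGTG letters of the canonical E-box, which cMyc with its partner MAX is known to bind, 4 times in the 300 bases around its start. The windows of Cdk4 and Cdk6, from 250 bases before to 50 bases after a transcription start in RefSeq (GRCm38.p6), are shown because these kinases are the partners of the D-type cyclins, and capitals mark each CACGTG, which reads the same on both strands. The Cdk4 window is chr10:127063285-127063584, plus strand, and the Cdk6 window chr5:3343643-3343942, plus strand.
Cdk4: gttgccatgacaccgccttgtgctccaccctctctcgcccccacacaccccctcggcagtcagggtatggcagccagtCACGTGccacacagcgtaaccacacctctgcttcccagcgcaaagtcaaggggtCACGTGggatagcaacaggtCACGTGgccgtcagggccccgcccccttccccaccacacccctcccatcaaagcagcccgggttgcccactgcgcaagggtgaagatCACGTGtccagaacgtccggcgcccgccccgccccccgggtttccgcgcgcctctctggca
Cdk6: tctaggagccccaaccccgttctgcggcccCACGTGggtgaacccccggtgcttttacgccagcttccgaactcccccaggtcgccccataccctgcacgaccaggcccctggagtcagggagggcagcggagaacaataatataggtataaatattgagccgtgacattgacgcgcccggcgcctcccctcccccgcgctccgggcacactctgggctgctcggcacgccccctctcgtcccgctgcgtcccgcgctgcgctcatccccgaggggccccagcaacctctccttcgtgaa

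In the Cdk4 window the matches lay at bases 79 to 84, 133 to 138, 153 to 158 and 240 to 245, the last of them 5 bases before the start, and in the Cdk6 window at bases 31 to 36. Of 32851 such RefSeq windows of the mouse, 7.15% held at least 1 CACGTG and 8 windows (0.0244%) held 4 or more. The letters were searched in the windows of 7 of the 10 regulators, and those of Ccnd1, Ccnd2 and Rb1 were not analysed here. Cdkn2c held 1 CACGTG in 1 of its 2 windows, and Ccnd3, Cdk2, Cdkn1a and Cdkn1b held none. A search of both strands for the E2F site letters TTTCGCGC, TTTGGCGC and TTTCCCGC, which together occurred in 1.84% of windows, found TTTCCCGC in Cdk2 on the reverse strand, at bases 111 to 118 of its window. A match of letters describes these windows and does not show that a factor was bound there.

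Cdk4 (ENSMUSG00000006728, chr10:127063534-127067920) was the most abundant of the 10 transcripts per length, at 2059 ± 405 normalized counts per kb over the 16 libraries. Its normalized counts in replicates 1 to 4 were 6019, 8344, 8720 and 8440 in cMyc+prePB, and 4953, 7264, 6545 and 7063 in cMyc+early. In cMyc+lateCD23int they were 4387, 5642, 7009 and 7972, and in cMyc+lateCD23lo 4804, 6654, 6203 and 7003. Replicate 1 was the lowest library in each subpopulation, and the cMyc+prePB range overlapped the other 3. The widest log2 difference, of cMyc+prePB over cMyc+lateCD23int, was 0.35 (95% interval -0.05 to 0.76, limma adjusted p = 0.627), an interval that does not reach a 2-fold difference in either direction.

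Cdk6 (ENSMUSG00000040274, chr5:3341485-3531008), the second kinase of the D-type cyclins, was instead highest in cMyc+lateCD23lo. Its normalized counts there were 6631, 6229, 7517 and 7352, all above those of cMyc+lateCD23int, at 4039, 6160, 4980 and 4773. They were 5746, 6571, 4626 and 5123 in cMyc+prePB and 4968, 3848, 6248 and 6051 in cMyc+early, each of which overlapped the cMyc+lateCD23lo range. Cdk6 was the 1 regulator whose ranges in cMyc+lateCD23int and cMyc+lateCD23lo did not overlap, a separation shown by 3.77% of all tested genes. The differences of -0.49 (95% interval -0.85 to -0.13) between these subpopulations and of -0.41 (interval -0.78 to -0.05) between cMyc+early and cMyc+lateCD23lo did not pass (limma adjusted p = 0.699 and 0.411).

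Per kb, Cdk4 exceeded Cdk6 in every library, with a ratio of 6.30 ± 1.62 for cMyc+prePB, 5.49 ± 1.79 for cMyc+early, 5.47 ± 1.45 for cMyc+lateCD23int and 3.84 ± 0.64 for cMyc+lateCD23lo. Cdk4 made up 85.8% ± 3.22 of the sum of both kinases for cMyc+prePB, 83.9% ± 3.59 for cMyc+early, 83.9% ± 3.57 for cMyc+lateCD23int and 79.1% ± 2.80 for cMyc+lateCD23lo. The cMyc+lateCD23lo libraries, at 75.7% to 82.1%, overlapped those of the other 3 subpopulations.

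Cdk2 (ENSMUSG00000025358, chr10:128697939-128705031), the partner of cyclin E, varied little. It ranged from 2772 to 3540 normalized counts for cMyc+prePB, 2325 to 4197 for cMyc+early, 3078 to 4451 for cMyc+lateCD23int and 3180 to 4427 for cMyc+lateCD23lo. All 4 ranges overlapped. The widest log2 difference, of cMyc+prePB against cMyc+lateCD23lo, was -0.22 (95% interval -0.62 to 0.17, limma adjusted p = 0.640).

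**Figure D3:**
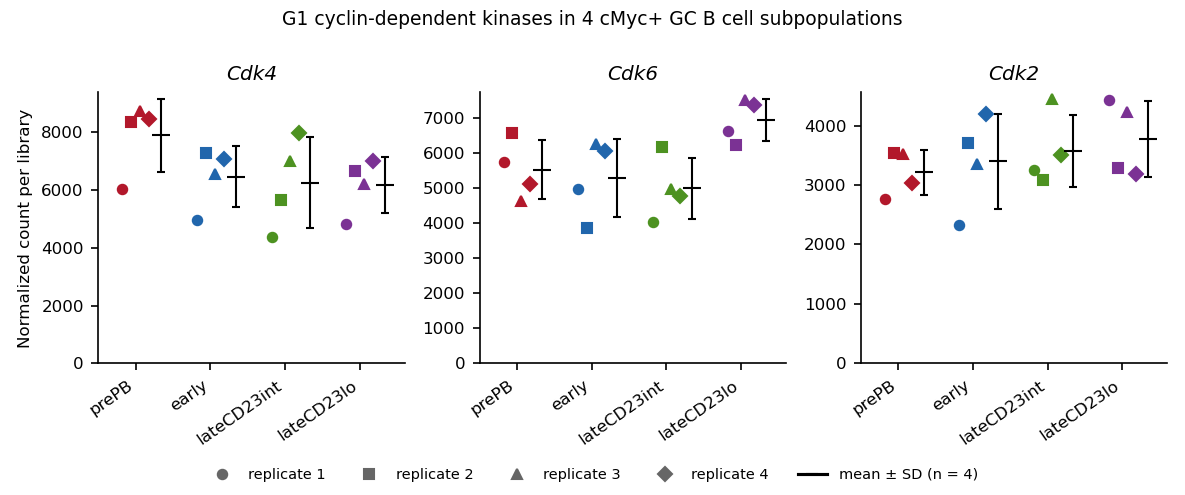
Normalized counts of Cdk4, Cdk6 and Cdk2 (vertical axes, linear from 0) in each library of the 4 subpopulations, with marker shapes for replicate numbers and black bars for mean ± SD (n = 4). The cMyc+lateCD23lo libraries of Cdk6, at 6229 to 7517, lay above all 4 cMyc+lateCD23int libraries, and the ranges of Cdk4 and Cdk2 overlapped between all subpopulations.

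The CIP/KIP inhibitors were expressed at low levels, 33.0 ± 7.22 normalized counts per kb for Cdkn1b and 16.5 ± 8.85 for Cdkn1a over the 16 libraries. Cdkn1b (p27, ENSMUSG00000003031, chr6:134920401-134925513) had 187, 170, 210 and 174 normalized counts in cMyc+early. The counts were 120, 128, 160 and 168 in cMyc+prePB, 154, 186, 113 and 162 in cMyc+lateCD23int and 97.0, 100, 129 and 148 in cMyc+lateCD23lo. All 4 cMyc+early libraries lay above all those of cMyc+prePB and of cMyc+lateCD23lo, and its standard deviation within subpopulations on the log2 scale, 0.25, was below the lower quartile of all tested genes, 0.36. The fitted differences did not pass: 0.66 for cMyc+early over cMyc+lateCD23lo (95% interval -0.10 to 1.41, limma adjusted p = 0.538) and -0.37 for cMyc+prePB against cMyc+early (interval -1.12 to 0.38, limma adjusted p = 0.851). The limma standard error of each, 0.358, exceeded the standard deviation of 0.25, because the fit also draws on the spread of genes of similar level. The intervals are therefore wider than the spread of Cdkn1b alone would give.

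Ranges that did not overlap were thus shown by 2 regulators between cMyc+early and cMyc+lateCD23lo, Ccnd2 and Cdkn1b, against 6.23% of all tested genes, and by 2 between cMyc+prePB and cMyc+early, Cdkn1b and Rb1, against 4.23%. Only Ccnd2 was separated between cMyc+prePB and cMyc+lateCD23int (5.21% of tested genes) and between cMyc+prePB and cMyc+lateCD23lo (6.56%). None of the 10 was separated between cMyc+early and cMyc+lateCD23int, where 2.48% of tested genes were.

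Cdkn1a (p21, ENSMUSG00000023067, chr17:29090976-29100727), a target of p53, was measured at 0 to 112 reads per library. Its normalized counts were 31.2, 43.8, 48.7 and 37.9 in cMyc+prePB, and 69.2, 66.4, 54.9 and 33.4 in cMyc+early. They were 111.5, 0, 67.5 and 38.1 in cMyc+lateCD23int, where the library without a read allows up to 3.05, and 100.2, 86.1, 112.1 and 37.7 in cMyc+lateCD23lo. All ranges overlapped. The widest log2 difference, of cMyc+lateCD23int against cMyc+lateCD23lo, was -1.75 (95% interval -3.97 to 0.46, limma adjusted p = 0.827), and it was -0.23 without cMyc+lateCD23int replicate 2, the library at 0.

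Cdkn2c (p18, ENSMUSG00000028551, chr4:109660876-109667189) was the most abundant inhibitor per length, at 151 ± 49.6 normalized counts per kb. It ranged from 405 to 557 normalized counts in cMyc+early, 189 to 500 in cMyc+prePB, 274 to 627 in cMyc+lateCD23int and 243 to 619 in cMyc+lateCD23lo. Here too all ranges overlapped, and cMyc+prePB was -0.65 against cMyc+early on the log2 scale (95% interval -1.40 to 0.10, limma adjusted p = 0.652). The other INK4 genes Cdkn2a and Cdkn2b and the third CIP/KIP gene Cdkn1c averaged 2.60, 5.82 and 7.28 normalized counts, below the mean of 10 needed for testing.

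Rb1 (ENSMUSG00000022105, chr14:73183673-73325822), whose product the D cyclin complexes phosphorylate, had 82.8, 197, 101 and 171 normalized counts in cMyc+prePB, below all 4 cMyc+early libraries, at 933, 266, 236 and 296. In cMyc+lateCD23int it had 161, 159, 415 and 238, and in cMyc+lateCD23lo 341, 134, 221 and 208. Replicate 1 of cMyc+early stood far above the rest. The log2 difference of cMyc+prePB against cMyc+early was -1.48 (95% interval -2.50 to -0.46) and did not pass over all tested genes (limma adjusted p = 0.361). It was -1.03 without cMyc+early replicate 1 and -0.81 when the 4 libraries numbered 1 were left out.

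**Figure D4:**
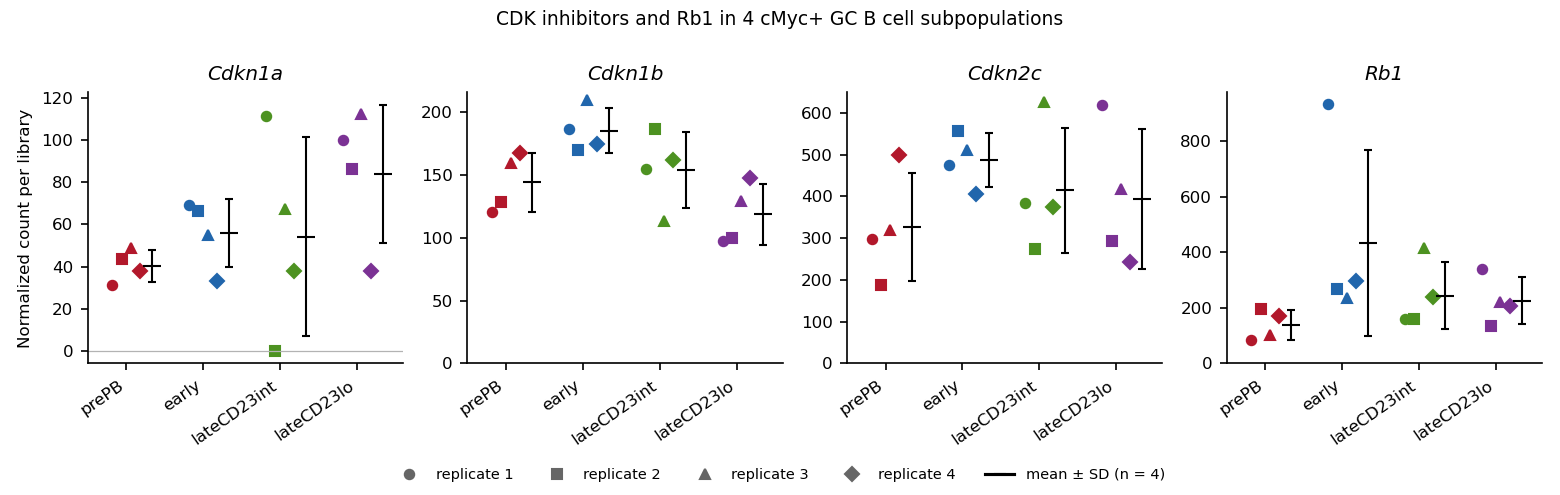
Normalized counts of Cdkn1a, Cdkn1b, Cdkn2c and Rb1 (vertical axes, linear) in each library of the 4 subpopulations, with marker shapes for replicate numbers and black bars for mean ± SD (n = 4). Cdkn1b in cMyc+early, at 170 to 210, lay above all libraries of cMyc+prePB and cMyc+lateCD23lo, and Rb1 in cMyc+early replicate 1 reached 933.

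The transcript of the cyclin that was highest in cMyc+prePB and that of its inhibitor p27 were also set side by side. The ratio of Ccnd2 to Cdkn1b per kb was 37.1 ± 10.9 for cMyc+prePB, 16.2 ± 3.89 for cMyc+early, 12.1 ± 4.29 for cMyc+lateCD23int and 10.4 ± 4.0 for cMyc+lateCD23lo. The cMyc+prePB libraries, at 25.8 to 51.5, lay above the libraries of all other subpopulations, which ranged from 6.89 to 19.8. As Ccnd2 was taken here for being highest in cMyc+prePB, this separation partly restates its excess there, and the ratio was not tested. As a whole the 10 genes did not shift in 1 direction: between cMyc+prePB and cMyc+lateCD23lo, 4 of 10 were higher in cMyc+prePB, with a median log2 difference of -0.24 against -0.0064 over all tested genes.

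**Figure D5:**
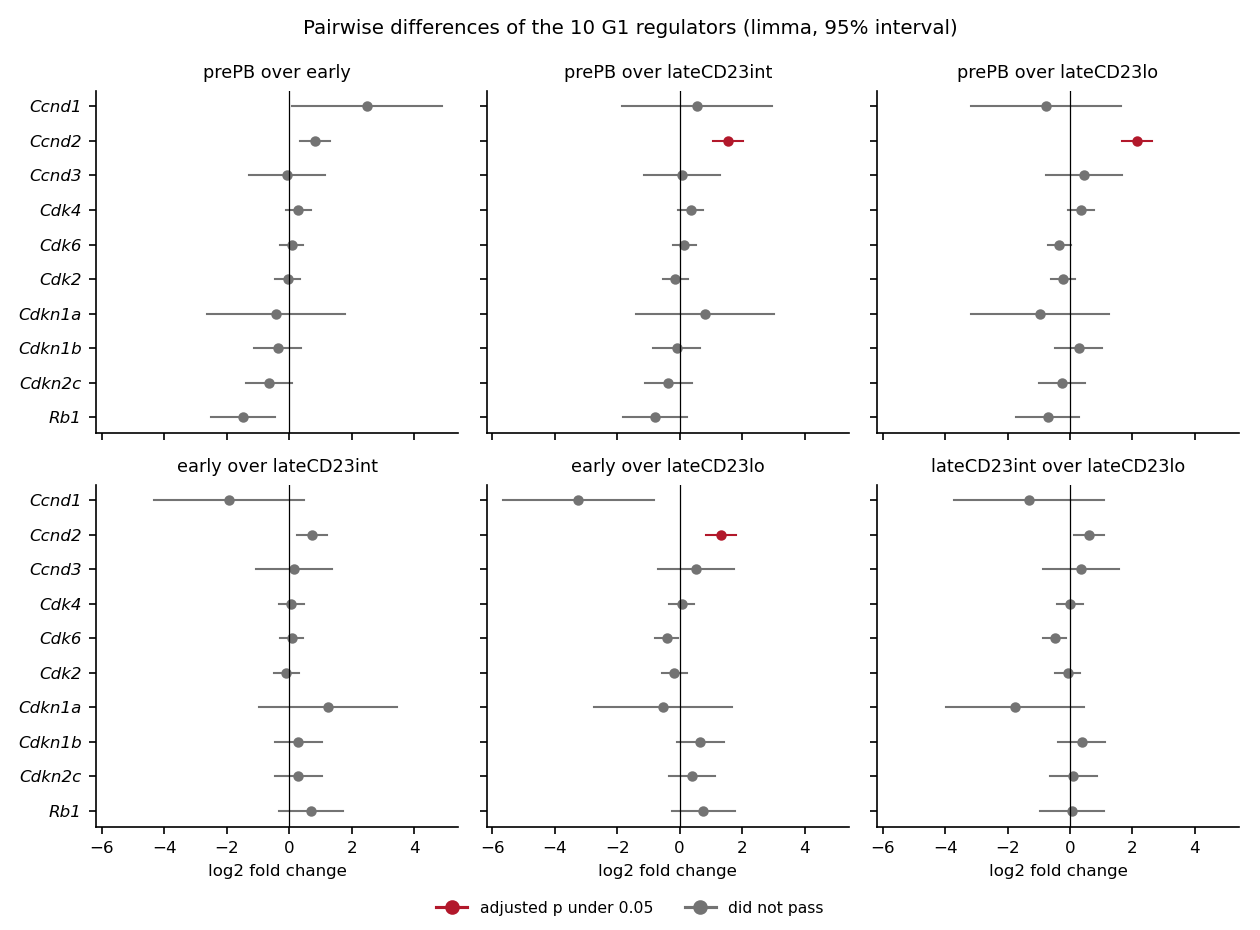
Log2 fold changes (horizontal axis) of the 10 G1 regulators (vertical axis) in the 6 pairwise comparisons, with 95% intervals from limma. Points in red passed at an adjusted p under 0.05, which was Ccnd2 in 3 comparisons (log2 fold changes 1.54, 2.15 and 1.34), and the intervals of Ccnd1 and Cdkn1a were the widest.

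The other genes of the pathway were read in 5 lists. Tested were 23 partners in the G1/S transition (E-type and A-type cyclins, E2F and DP factors, pocket proteins, other CDK inhibitors and activators of the kinases). None passed in any comparison with limma or edgeR in the fits of all 16 libraries. An unadjusted multigroup p under 0.05 was seen for 1270 of the 12505 tested genes and for 2 of these 23. Those were Cdc25a, the phosphatase that activates CDK2, and Ccne2, cyclin E2, which averaged 4806 ± 1442 for cMyc+prePB, 5762 ± 1320 for cMyc+early, 7173 ± 2595 for cMyc+lateCD23int and 8521 ± 2364 for cMyc+lateCD23lo (limma multigroup adjusted p = 0.441). Cdc25a averaged 829 ± 145 in cMyc+lateCD23int and 1499 ± 182 in cMyc+lateCD23lo (limma multigroup adjusted p = 0.310). Tfdp2 and E2f6, the next by their multigroup p, had adjusted values of 0.529 and 0.536.

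The 16 E2F target genes encode replication proteins and enzymes of nucleotide synthesis. In the fits of all 16 libraries without a block, none of them passed in any comparison by either tool. Of these genes, 4 had an unadjusted multigroup p under 0.05 with limma. With the replicate number as a block, 1 of the 16 passed between cMyc+early and cMyc+lateCD23lo by each tool, where limma called 90 of the 12505 tested genes. The count of E2F targets was also 1 there with limma without cMyc+lateCD23int replicate 3. Leaving out single libraries gave 17 to 50 calls over all tested genes in this comparison. Pcna, the sliding clamp of replication, averaged 12651 ± 2152 in cMyc+early and 18650 ± 1270 in cMyc+lateCD23lo (limma multigroup adjusted p = 0.301). The means of Tk1 and Cdc6 were likewise highest in cMyc+lateCD23lo, at 4186 ± 575 and 4117 ± 389, and did not pass. Over the list the median log2 difference of cMyc+early against cMyc+lateCD23lo was -0.14, with 4 of 16 genes higher in cMyc+early, beside -0.0053 over all tested genes. The list as a whole was not lower in cMyc+prePB than in cMyc+lateCD23lo, with 8 of 16 genes higher in cMyc+prePB (median 0.0096, beside -0.0064). Against cMyc+early, 13 of 16 were higher in cMyc+prePB (median 0.16, beside 0.013).

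The 12 cMyc targets were counted in the same comparisons. Their median log2 difference of cMyc+prePB over cMyc+lateCD23lo was 0.50, with 11 of 12 genes higher in cMyc+prePB, and over cMyc+lateCD23int it was 0.43, with 12 of 12 higher, beside -0.0064 and -0.021 over all tested genes. Between cMyc+early and cMyc+lateCD23lo, 8 of 12 were higher in cMyc+early (median 0.20). The steps between neighbours in the order of Ccnd2 differed. For cMyc+prePB over cMyc+early, 11 of 12 differences were positive (median 0.20), where the log2 difference of Ccnd2 was 0.81. For cMyc+early over cMyc+lateCD23int, 11 of 12 were positive (median 0.26), where that of Ccnd2 was 0.72. For cMyc+lateCD23int over cMyc+lateCD23lo, 5 of 12 were positive (median -0.044), where that of Ccnd2 was 0.61. None of the 12 passed in any comparison with limma or with edgeR in the fits of all 16 libraries without a block, although 6 and 7 of them had an unadjusted p under 0.05 between cMyc+prePB and cMyc+lateCD23lo or cMyc+lateCD23int. Over all 12505 tested genes, 1588 and 1097 had one in these comparisons. When the 4 libraries numbered 1 were left out, 3 of the 12 targets (Nolc1, Nop56 and Srm) passed between cMyc+prePB and cMyc+lateCD23lo, as did Myc. Over all tested genes, calls in this comparison numbered 13 to 204 over the alternatives. Nop56, a nucleolar protein of ribosome synthesis, averaged 17422 ± 2327 in cMyc+prePB and 11881 ± 1265 in cMyc+lateCD23lo (limma multigroup adjusted p = 0.214). Srm, spermidine synthase, averaged 3261 ± 940 and 1487 ± 536 in these subpopulations, and the nucleolar genes Ncl and Nolc1 likewise had their highest means in cMyc+prePB, at 47292 ± 3626 and 5826 ± 1068.

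Myc itself averaged 3823 ± 1022 for cMyc+prePB, 2503 ± 1214 for cMyc+early, 2079 ± 1245 for cMyc+lateCD23int and 1427 ± 229 for cMyc+lateCD23lo (limma multigroup adjusted p = 0.350), so its means had the order of those of Ccnd2 with a wider spread between libraries. Its log2 difference of cMyc+prePB over cMyc+lateCD23lo was 1.39 (95% interval 0.57 to 2.20, limma adjusted p = 0.151). With the replicate number as a block this difference passed (limma adjusted p = 0.0392). Myc was assigned to the list of FOXO factors and other regulators of the B cell cycle. None of the 5 genes of that list passed in the fits of all 16 libraries without a block. Foxo1, Tfap4 and Trp53 had multigroup adjusted p-values with limma of 0.739, 0.803 and 0.852.

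Of 11 tested p53 targets, which include genes of cell cycle arrest and apoptosis beside Cdkn1a, none passed in any comparison by either tool. Sesn1, a sestrin, came closest and averaged 725 ± 348 in cMyc+early against 298 ± 111 in cMyc+prePB (limma multigroup adjusted p = 0.317). Bax, an activator of apoptosis, averaged 3707 ± 344 in cMyc+prePB and 2838 ± 175 in cMyc+lateCD23lo (limma multigroup adjusted p = 0.518), and Aen and Btg2 had adjusted values of 0.590 and 0.627.

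Finally, the 2 regulators whose subpopulation means were farthest apart on the log2 scale, Ccnd2 and Ccnd1, were compared with every tested gene over the 16 libraries. Likeness was the root mean square difference of log2 values, each gene centred on its own mean, and a smaller value means a closer pattern. The 5 genes nearest to Ccnd2 were Batf, at 0.39, Syngr2, at 0.45, Plscr1, at 0.45, Clic4, at 0.46, and Gadd45g, at 0.47, where the median over all tested genes was 1.08. Batf, an AP-1 family transcription factor, averaged 5987 for cMyc+prePB, 3268 for cMyc+early, 2492 for cMyc+lateCD23int and 1931 for cMyc+lateCD23lo. Plscr1, a phospholipid scramblase, averaged 4826, 2019, 1980 and 1164 in the same order. For Ccnd1 the nearest genes were Gcc1, at 0.84, and Etaa1os, Gm12744, 2200002D01Rik and AC140477.3, at 1.23 to 1.33, where the median was 1.98, and these were genes of low counts like Ccnd1 itself. The points compared are libraries that share subpopulations, and the values are descriptions without a test.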

How the data were processed

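RNA was sequenced on an Illumina instrument from libraries made with a low-input kit. The deposited values are gene counts that the authors divided by a size factor per library (a normalized signal). The submitters' processing notes name, with no role or order, Trimmomatic 0.36, RSEM 1.2.31, STAR 2.5.2a, DESeq2 1.20.0, R 3.5.1 and build GRCm38. Reads per gene were recovered from the steps of the values, of which 100% were whole within 0.001. Genes with a mean of at least 10 were tested on log2(normalized count + 1) with limma 3.58.1 (R 4.3.3), with a mean-variance trend and 1 fit over all 16 libraries, by a multigroup F test and 6 pairwise contrasts, with Benjamini-Hochberg adjustment over all tested genes and a threshold of 0.05. The count test of edgeR 4.0.16 on recovered reads called 29 genes in the multigroup test where limma called 51. The procedure was tested on simulated data. Fold changes of low genes on this scale depend on libraries without a read and differed from those of edgeR on recovered reads. For Ccnd1 in cMyc+early against cMyc+lateCD23lo the log2 difference was -3.25 with limma and -2.32 with edgeR. For Cdkn1a in cMyc+lateCD23int against cMyc+lateCD23lo it was -1.75 with limma and -0.64 with edgeR. Library counts limit the precision of low genes, and floors of 3 reads cover counting error only.

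Exon lengths and gene coordinates came from GENCODE M21 (GRCm38), and levels per kb used the union of exons. The members and lists were chosen with earlier results of these data known. All 10 members are named, as are genes of the lists that passed, up to 4 genes per list by their multigroup p, the 5 genes most like each of 2 members, and genes of the sorting markers; 1 gene that this rule names is not reported here. The labels do not say which animals gave which library, so p-values measure the spread between these samples. Two-sided p-values are given. Alternatives changed the pseudocount, filter, scaling, trend, block, tool or libraries used.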

Additional observations from a re-analysis of the deposited data

Results flagged for a closer look

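In 48 groups of 4 libraries (the 10 genes and 2 shares in each subpopulation), 3 held a library far from the other 3, by the gap to its nearest neighbour over the whole range of the group, and chance gives about 1 in 20. All of them were libraries numbered 1. Ccnd2 in cMyc+early replicate 1 was lowest, at 4280 normalized counts, against 6611 to 6965 in the others. Cdk4 in cMyc+prePB replicate 1 was lowest, at 6019, against 8344 to 8720. Rb1 in cMyc+early replicate 1 was highest, at 932.8, against 235.8 to 296.1.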

How the results depend on the processing

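The multigroup call on Ccnd2 and its excess in cMyc+prePB over cMyc+lateCD23lo held under every alternative that gave them, and no recomputed log2 difference of a regulator reversed. The number of regulators that passed between cMyc+prePB and cMyc+early was 1 with the replicate number as a block (limma adjusted p of Ccnd2 = 0.022) and 1 with edgeR and the block (0.0256), and 0 to 1 when single libraries were left out. Without the mean-variance trend it was 0 between cMyc+prePB and cMyc+lateCD23int (limma adjusted p = 0.052) and 0 between cMyc+early and cMyc+lateCD23lo (0.0744), where leaving out single libraries gave 0 to 1. The cause was not tested. With exons of the longest transcript, the share of Ccnd2 was 87.8% in cMyc+prePB and 67.2% in cMyc+lateCD23lo, and that of Cdk4 83.1% in cMyc+lateCD23lo. Without division by length the share of Cdk4 was 58.7%, 55.1%, 55.2% and 46.9% in cMyc+prePB, cMyc+early, cMyc+lateCD23int and cMyc+lateCD23lo. The longest transcript also put Cdk2 above Ccnd2 (1069 against 918 per kb) and Ccnd3 above Cdkn2c (242 against 164).

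Over all tested genes, calls numbered 51 in the multigroup test (25 to 173 over the alternatives), 24 between cMyc+prePB and cMyc+early (0 to 65), 18 between cMyc+prePB and cMyc+lateCD23int (7 to 121), 33 between cMyc+prePB and cMyc+lateCD23lo (13 to 204) and 35 between cMyc+early and cMyc+lateCD23lo (17 to 90). They numbered 1 in each remaining comparison (0 to 1 and 0 to 2). The same replicate numbers recur in the 4 subpopulations. Deviations of same-numbered libraries from their group means correlated with a mean r of 0.051 over all tested genes, over 0.1 in 5 of 24 pairs. Over the 3651 most abundant genes the mean r was 0.259, over 0.1 in 17 of 24 pairs, with a range of -0.592 to 0.701, and all pairs numbered 1 or 4 exceeded 0.1. Of 16 libraries, 11 correlated best with their own number. As neither set of genes had every pair over 0.1 and the labels name no shared animal or day, the numbers were not taken as pairs, though libraries numbered 1 deviated together in abundant genes. The rule that every pair exceed 0.1 was a choice, and the main fit called 51 genes in the multigroup test where the block called 173. With the block, 173 genes passed the multigroup test, 3 of the 12 cMyc targets among them (Nop56, Srm and Nolc1, limma adjusted p = 0.032, 0.0024 and 0.031). With the block, limma and edgeR each called 3 of these targets between cMyc+prePB and cMyc+lateCD23int (Ncl, Nop56 and Srm), 4 between cMyc+prePB and cMyc+lateCD23lo (Ldha, Nolc1, Nop56 and Srm) and 1 between cMyc+early and cMyc+lateCD23lo (Srm). Over all 12505 tested genes, limma with the block called 121, 192 and 90 in these comparisons. Of the G1/S partners and E2F targets in pairwise tests, Ccne2 and Rrm2 passed between cMyc+prePB and cMyc+lateCD23lo when the 4 libraries numbered 1 were left out. Ccnd1 and Cdkn1a had at most 129 reads in any library.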
